A study of Mus musculus with 12 samples.

Results

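The genes described here belong to the DUSP, Sprouty and SPRED families, which include feedback inhibitors of the extracellular signal-regulated kinase (ERK) pathway. The genes were chosen by name, with earlier results of these data known, and are 10 of the 22915 genes in the table. They are Dusp1, Dusp4, Dusp5, Dusp6, Dusp10, Spry1, Spry2, Spry4, Spred1 and Spred2. RNA was sequenced from primary cardiomyocytes of adult male C57/Bl6 mice, 12 weeks old, after 24 h of culture in normoxia with PBS or with a recombinant cytokine. The cytokines were mouse leukemia inhibitory factor (mLIF), which acts through its receptor LIFR, mouse oncostatin M (mOSM), which acts through its receptor OSMR, and the engineered human-like oncostatin M (hlOSM), which acts through both. There were 3 libraries in each of the 4 conditions, 12 in all. The labels give 25 ng/ml for each cytokine, whereas the study's methods state another concentration. Neither source states if equal replicate numbers in different conditions mean a shared cell preparation, so the p-values measure only the spread between these libraries, which may be technical. Each value is a read count per gene that the authors normalized between libraries and rounded to a whole number, without division by gene length, and these totals ran from 2745748 to 2911891 per library. Such totals are not numbers of sequenced reads, and the depth of each library is not in the files, while the study's methods state an average read number. The samples are bulk RNA of cultured cells, in which fewer cells of a type and less RNA per cell cannot be told apart.

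Cytokines that signal through the shared receptor chain gp130 activate STAT factors and also the RAS, RAF, MEK and ERK cascade, which in cardiomyocytes is tied to growth and survival. ERK activity induces its own inhibitors. The nuclear phosphatases DUSP1, DUSP4 and DUSP5 and the cytoplasmic DUSP6 remove phosphate from MAP kinases, with DUSP5 and DUSP6 selective for ERK and DUSP10 acting mainly on JNK and p38, while Sprouty and SPRED proteins act upstream at the level of RAS and RAF.

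The 10 genes lie on 10 different chromosomes of the mouse genome (build mm10), among them Dusp6 at chr10:99263231-99267489, Dusp5 at chr19:53529109-53542431, Dusp4 at chr8:34807297-34819894, Spry1 at chr3:37639947-37644598 and Spred1 at chr2:117121374-117182279, all on the plus strand. All 10 passed the filter for testing, which asked for 3 or more libraries with a normalized count of 10 or higher, as did 13184 genes in the whole table. Per kilobase of exon and averaged over the 12 libraries, Dusp5 had the highest level of the 10 genes, with a normalized count of 109.7 per kb, followed by Dusp6 with 79.7, Spred1 with 78.4 and Spry2 with 57.9. Spry4 (33.1 per kb), Dusp4 (27.7 per kb), Dusp10 (25.2 per kb), Dusp1 (23.7 per kb) and Spred2 (20.4 per kb) lay in between, and Spry1 was lowest with 7.89 per kb. Among tested genes, Dusp5 ranked at percentile 91.8 and Spry1 at percentile 21.7 of this level.

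A gene was called changed when its limma p-value, adjusted by Benjamini-Hochberg over all tested genes, was under 0.05. Fold changes are given on the scale log2(normalized count + 1), with a standard error (SE), and they understate the change of genes with low counts. With mLIF against PBS, 1 of the 10 genes was raised and 0 were lowered, where 5.47% and 4.44% of all tested genes were called in these directions (9.91% in either). At an unadjusted p under 0.05 there were 2, Dusp6 and, with a lower mean, Dusp5. The count with mLIF was 0 when PBS replicate 3, mLIF replicate 1 or mLIF replicate 2 was left out, and 2 without PBS replicate 1. With mOSM against PBS, 3 genes were raised and 2 lowered, against 15.4% and 15.8% of all tested genes (31.2% in either direction). With hlOSM against PBS, 2 genes were raised and 3 lowered, against 18.2% and 19.8% (37.9% in either direction). The F test over the 4 conditions called 5 of the 10 genes, namely Dusp4, Dusp5, Dusp6, Spry1 and Spred1, against 34.2% of all tested genes. The count with mLIF is close to its background, those with mOSM and hlOSM are above theirs by few genes, and a difference from the background was not tested. The values differed less between replicate numbers than independent libraries would, so that the p-values, which count all libraries as independent, are too small, and with the replicate number as a block each comparison called the same of the 10 genes. With this block, 5.95%, 25.3% and 31.2% of all tested genes were called in either direction with mLIF, mOSM and hlOSM against PBS. All comparisons with PBS share the same 3 control libraries. With mOSM and hlOSM the called genes went in both directions. The median log2 fold change of the 10 genes was -0.10 for mLIF, -0.07 for mOSM and -0.07 for hlOSM, beside medians of 0.00, 0.00 and -0.01 over all tested genes. In absolute size, the median change of the 10 genes was 0.16, 0.22 and 0.29, beside 0.14, 0.19 and 0.22 over all tested genes.

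**Figure D1:**
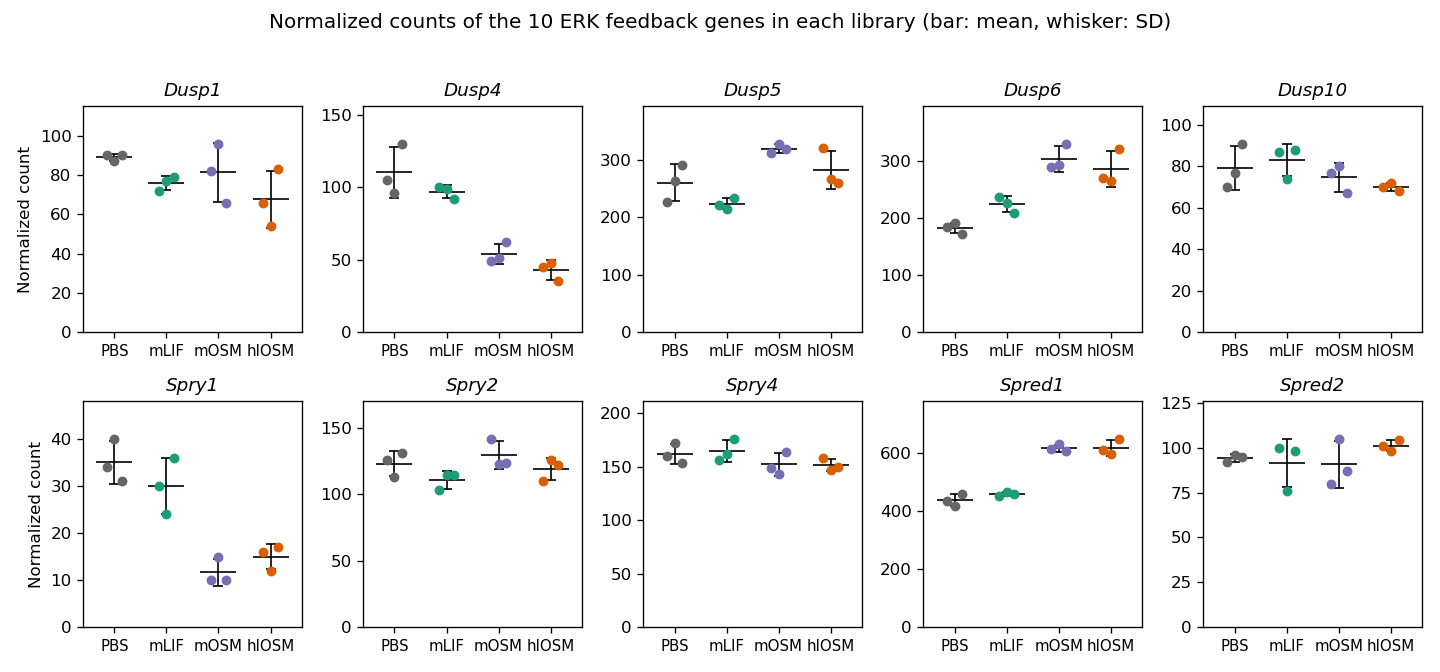
Normalized count of each of the 10 genes (vertical axes, starting at 0) in the 3 libraries of each condition (points), with the mean (horizontal bar) and SD (whiskers). Dusp6 and Spred1 are higher and Dusp4 and Spry1 lower in all mOSM and hlOSM libraries than in any PBS library.

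Dusp6, the cytoplasmic phosphatase selective for ERK, was the only 1 of the 10 genes called with all 3 cytokines. Its normalized counts were 184, 192 and 173 in PBS, 238, 227 and 210 in mLIF, 290, 293 and 331 in mOSM, and 271, 266 and 322 in hlOSM. Every mLIF library lay above every PBS library, and every mOSM and hlOSM library lay above every mLIF library. The means were 183 ± 9.54 for PBS, 225 ± 14.1 for mLIF, 305 ± 22.9 for mOSM and 286 ± 31.0 for hlOSM (SD, n = 3 each). Against PBS, Dusp6 rose by 0.30 on the log2 scale with mLIF (SE 0.08, adjusted p = 0.0221), by 0.73 with mOSM (SE 0.08, adjusted p = 3.26e-07) and by 0.64 with hlOSM (SE 0.08, adjusted p = 1.59e-06). These changes correspond to 1.23-fold, 1.66-fold and 1.56-fold. The call with mLIF was lost when PBS replicate 3 (0.26, adjusted p = 0.0989), mLIF replicate 1 (0.25, adjusted p = 0.1001) or mLIF replicate 2 (0.29, adjusted p = 0.0676) was left out. Dusp6 was also higher with mOSM than with mLIF by 0.43 (SE 0.08, adjusted p = 0.000652) and higher with hlOSM than with mLIF by 0.34 (SE 0.08, adjusted p = 0.00452). The levels therefore ran from PBS over mLIF to hlOSM and mOSM, and the 2 highest did not differ beyond their spread (hlOSM minus mOSM -0.09, 95% CI -0.26 to 0.08).

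Dusp5, a nuclear phosphatase that binds and dephosphorylates ERK, had normalized counts of 227, 263 and 291 in PBS, 221, 215 and 234 in mLIF, 312, 328 and 318 in mOSM, and 320, 267 and 259 in hlOSM. The mOSM libraries lay above all PBS and mLIF libraries, whereas the hlOSM libraries overlapped with those of PBS and only 1 of them reached the range of mOSM. The means were 260.3 ± 32.1 for PBS, 223 ± 9.71 for mLIF, 319 ± 8.08 for mOSM and 282 ± 33.2 for hlOSM (SD, n = 3 each). Dusp5 rose with mOSM against PBS by 0.30 (SE 0.09, adjusted p = 0.00957), a call that was lost without PBS replicate 1 (0.21, adjusted p = 0.0810). With hlOSM its change against PBS was 0.12 (95% CI -0.06 to 0.29, adjusted p = 0.303). With mLIF the mean was below that of PBS, at -0.21 (95% CI -0.39 to -0.04, adjusted p = 0.115), and without PBS replicate 1 this difference was called (-0.31, adjusted p = 0.0274). In the order mLIF, PBS, hlOSM and mOSM, no pair of neighbours differed beyond the threshold, while mOSM exceeded mLIF by 0.51 (SE 0.09, adjusted p = 0.000199) and hlOSM exceeded mLIF by 0.33 (SE 0.09, adjusted p = 0.00935). The last of these calls was lost without hlOSM replicate 1 (0.24, adjusted p = 0.0816). Gm50394, a gene on the opposite strand, overlaps 22.1% of the exonic bases of Dusp5, and its own normalized counts were 0 in the PBS libraries and between 1 and 5 in the others.

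Dusp4, a nuclear phosphatase for ERK, JNK and p38, went the other way. Its normalized counts were 105, 96 and 130 in PBS, 100, 99 and 92 in mLIF, 49, 51 and 62 in mOSM, and 45, 48 and 35 in hlOSM. PBS and mLIF overlapped, and all 6 libraries with mOSM or hlOSM were below the lowest of them. The means were 110.3 ± 17.6 for PBS, 97 ± 4.36 for mLIF, 54 ± 7 for mOSM and 42.7 ± 6.81 for hlOSM (SD, n = 3 each). Against PBS, the log2 fold change of Dusp4 was -1.01 with mOSM (SE 0.13, adjusted p = 4.35e-06) and -1.35 with hlOSM (SE 0.13, adjusted p = 5.78e-08), or 0.495-fold and 0.392-fold. With mLIF the difference from PBS was -0.17 (95% CI -0.45 to 0.11, adjusted p = 0.445). Against mLIF, the change of Dusp4 was -0.84 with mOSM (SE 0.13, adjusted p = 0.000133) and -1.18 with hlOSM (SE 0.13, adjusted p = 1.35e-06). The hlOSM libraries were all below the mOSM libraries, the closest being 48 and 49, and this difference was not called (-0.34, SE 0.13, adjusted p = 0.532). From high to low the order was PBS, mLIF, mOSM and hlOSM, with a called step only between mLIF and mOSM.

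Dusp1, an immediate early phosphatase with a preference for p38 and JNK, had normalized counts of 90, 87 and 90 in PBS, 72, 77 and 79 in mLIF, 82, 96 and 66 in mOSM, and 66, 54 and 83 in hlOSM. PBS libraries were close to each other and above all mLIF and hlOSM libraries, while mOSM spread from below the mLIF libraries to above those of PBS. The means were 89 ± 1.73 for PBS, 76 ± 3.61 for mLIF, 81.3 ± 15.0 for mOSM and 67.7 ± 14.6 for hlOSM (SD, n = 3 each). Of the comparisons of Dusp1 only hlOSM with PBS was called, at -0.41 (SE 0.14, adjusted p = 0.0227), and the call was lost without PBS replicate 1 (-0.40, adjusted p = 0.0508), PBS replicate 3 (-0.40, adjusted p = 0.0527), hlOSM replicate 1 (-0.40, adjusted p = 0.0529) or hlOSM replicate 2 (-0.26, adjusted p = 0.153). The F test over the 4 conditions did not call Dusp1 (adjusted p = 0.112), but did so without mOSM replicate 3 (adjusted p = 0.0417) or hlOSM replicate 3 (adjusted p = 0.0181). Its changes were -0.23 with mLIF (95% CI -0.51 to 0.06, adjusted p = 0.314) and -0.14 with mOSM (95% CI -0.43 to 0.14, adjusted p = 0.465). In the order PBS, mOSM, mLIF and hlOSM no neighbours differed beyond the threshold. Dusp10, the phosphatase for JNK and p38, ranged from 67 to 91 over all libraries, with means of 79.3 ± 10.7 for PBS, 83 ± 7.81 for mLIF, 74.7 ± 6.81 for mOSM and 70 ± 2 for hlOSM (SD, n = 3 each). It was called in no comparison, with differences from PBS of 0.07 with mLIF (95% CI -0.17 to 0.31), -0.08 with mOSM (95% CI -0.32 to 0.16) and -0.17 with hlOSM (95% CI -0.41 to 0.07).

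**Figure D2:**
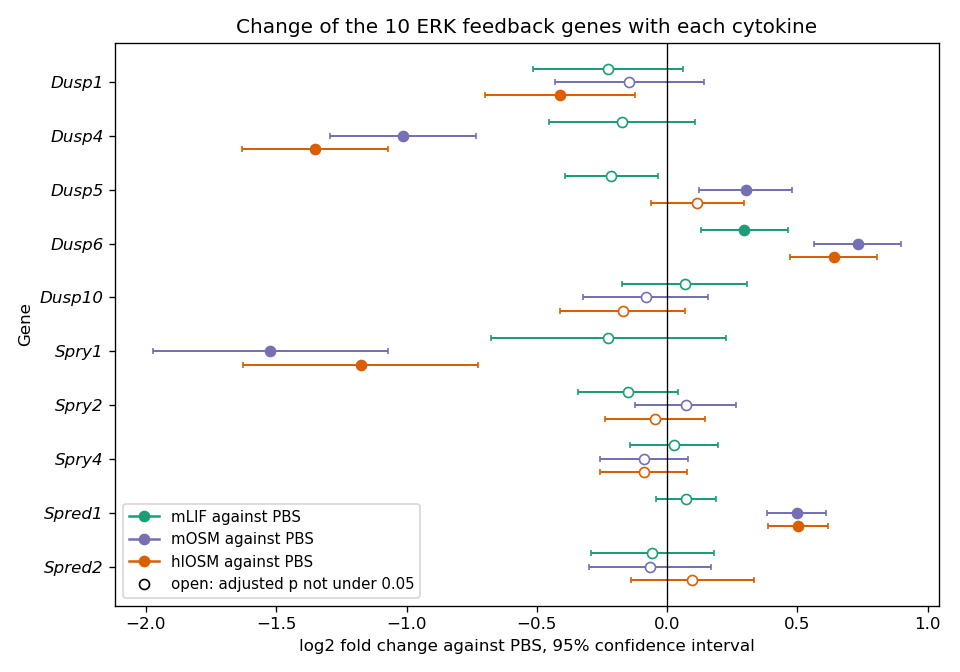
Log2 fold change of each of the 10 genes against PBS (horizontal axis) with mLIF, mOSM and hlOSM (colors); lines are 95% confidence intervals and open points were not called at an adjusted p under 0.05. Spry1 and Dusp4 lie farthest below 0 and Dusp6 and Spred1 farthest above 0 with mOSM and hlOSM, while the intervals of Dusp10, Spry2, Spry4 and Spred2 include 0 with every cytokine.

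Of the Sprouty genes, only Spry1 was called. Spry1, an inhibitor of growth factor signaling to RAS, had normalized counts of 34, 40 and 31 in PBS, 30, 24 and 36 in mLIF, 10, 15 and 10 in mOSM, and 16, 12 and 17 in hlOSM. The mOSM and hlOSM libraries overlapped with each other and all lay below the PBS and mLIF libraries, which also overlapped. The means were 35 ± 4.58 for PBS, 30 ± 6 for mLIF, 11.7 ± 2.89 for mOSM and 15 ± 2.65 for hlOSM (SD, n = 3 each). Against PBS, the log2 fold change of Spry1 was -1.52 with mOSM (SE 0.22, adjusted p = 1.11e-05) and -1.18 with hlOSM (SE 0.22, adjusted p = 0.000181), or 0.348-fold and 0.443-fold. With mLIF the difference was -0.23 (95% CI -0.68 to 0.22, adjusted p = 0.546). Against mLIF the change was -1.30 with mOSM (SE 0.22, adjusted p = 0.000220) and -0.95 with hlOSM (SE 0.22, adjusted p = 0.00361). Between hlOSM and mOSM the difference was 0.35 (95% CI -0.10 to 0.80, adjusted p = 0.755), so that the order from high to low, PBS, mLIF, hlOSM and mOSM, holds a called step only between mLIF and hlOSM. These are the lowest counts of the 10 genes. Gm42922, a gene on the opposite strand that is not in the table, overlaps 24.4% of the exonic bases of Spry1.

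Spry2 and Spry4, which inhibit the same step, were called in no comparison. Spry2 ranged from 103 to 142 over the 12 libraries, with means of 123 ± 9.29 for PBS, 111 ± 6.93 for mLIF, 129.7 ± 10.7 for mOSM and 119 ± 8.33 for hlOSM (SD, n = 3 each). Its differences from PBS were -0.15 with mLIF (95% CI -0.34 to 0.04), 0.07 with mOSM (95% CI -0.12 to 0.26) and -0.05 with hlOSM (95% CI -0.24 to 0.15). All mOSM libraries of Spry2 (142, 123 and 124) lay above all mLIF libraries (103, 115 and 115), with a difference of 0.22 that missed the threshold (95% CI 0.03 to 0.41, adjusted p = 0.138). Spry4 ranged from 143 to 176, with means of 162 ± 9.61 for PBS, 165 ± 10.3 for mLIF, 152 ± 10.8 for mOSM and 152 ± 5.69 for hlOSM (SD, n = 3 each). Its differences from PBS were 0.03 with mLIF (95% CI -0.14 to 0.19), -0.09 with mOSM (95% CI -0.26 to 0.08) and -0.09 with hlOSM (95% CI -0.26 to 0.08). Per kilobase in PBS, Spry1 stood at 12.0, Spry4 at 34.0 and Spry2 at 59.1, and with mOSM at 4.02, 32.0 and 62.2.

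Spred1, a membrane-bound protein that brings the RAS-inactivating neurofibromin to RAS, had normalized counts of 433, 417 and 458 in PBS, 452, 465 and 458 in mLIF, 614, 628 and 604 in mOSM, and 610, 594 and 648 in hlOSM. PBS and mLIF overlapped, mOSM and hlOSM overlapped, and the highest of the first 6 libraries (465) was well below the lowest of the last 6 (594). The means were 436 ± 20.7 for PBS, 458 ± 6.51 for mLIF, 615 ± 12.1 for mOSM and 617 ± 27.7 for hlOSM (SD, n = 3 each). Spred1 rose by 0.50 with mOSM (SE 0.06, adjusted p = 3.64e-07) and by 0.50 with hlOSM (SE 0.06, adjusted p = 2.46e-07) against PBS, or 1.41-fold and 1.42-fold. With mLIF the change was 0.07 (95% CI -0.04 to 0.19, adjusted p = 0.431). Against mLIF, Spred1 was higher with mOSM by 0.42 (SE 0.06, adjusted p = 1.02e-05) and with hlOSM by 0.43 (SE 0.06, adjusted p = 7.08e-06). The difference between hlOSM and mOSM was 0.00 (95% CI -0.11 to 0.12), and from low to high the order PBS, mLIF, mOSM and hlOSM has a called step only between mLIF and mOSM. Spred2, of the same function, ranged from 76 to 105, with mean levels of 20.4 per kb for PBS, 19.8 for mLIF, 19.6 for mOSM and 21.9 for hlOSM, and SDs of the normalized count from 2.08 in PBS to 13.3 in mLIF (n = 3 each). It was called in no comparison, with differences from PBS of -0.06 with mLIF (95% CI -0.29 to 0.18), -0.07 with mOSM (95% CI -0.30 to 0.17) and 0.10 with hlOSM (95% CI -0.14 to 0.33).

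The comparison of mOSM with mLIF sets OSMR signaling against LIFR signaling. It called 3 of the 10 genes higher with mOSM (Dusp5, Dusp6 and Spred1) and 2 lower (Dusp4 and Spry1), where 6.05% and 5.76% of all tested genes were called. The same 5 genes were called in the same directions with hlOSM against mLIF, with a background of 7.42% and 9.22%. In both comparisons the 10 genes were called more often than all tested genes, a difference that was not tested. The genes were chosen with earlier results of these data known, so this difference cannot be read as a result about them. Both comparisons share the mLIF libraries. Setting hlOSM against mOSM compares 2 different proteins, so the added LIFR arm cannot be told apart from other differences between them. In this comparison limma called 0 of the 10 genes, against 0.106% of all tested genes. At an unadjusted p under 0.05 there were 2, Dusp4 and Dusp5, both with a lower mean in hlOSM. The interaction, the difference of hlOSM minus mOSM less the difference of mLIF minus PBS, called 0 of the 10 genes with limma, against 0.167% of all tested genes, and 1 had an unadjusted p under 0.05. That gene was Dusp6, whose mean rose from PBS to mLIF but was lower with hlOSM than with mOSM (interaction -0.39, SE 0.11, adjusted p = 0.165). Without hlOSM replicate 3 its interaction was called (-0.48, adjusted p = 0.0323). For Spry1 the interaction was 0.57 (95% CI -0.06 to 1.21, adjusted p = 0.488).

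The genes whose pattern was most like a member's were found by the Pearson correlation of log2 values over the 12 libraries (n = 12), which share the 4 conditions, so that it follows the differences between groups. Among 8661 tested genes with an average of 50 or more, the genes most like Spred1 were Ptprj, Abi3bp and Sdc1 (each r = 0.99), and those most like Dusp6 were Scarb1 (r = 0.98), Zcchc4 (r = 0.98) and Mbd1 (r = 0.97). Those most like Dusp4 were Npr3, Tagln and Pdgfra (each r = 0.98), and those most like Spry1 were Ccnd1, Cav1 (each r = 0.95) and Gpam (r = 0.94).

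Dusp4 and Spry1 fell with mOSM and hlOSM, with which markers of smooth muscle cells and pericytes were also lower. The summed normalized count of 8 such markers was 1555, 1475 and 1845 in PBS, 1424, 1358 and 1381 in mLIF, 1048, 1063 and 986 in mOSM, and 923, 983 and 997 in hlOSM. Of 7 tested markers, 1 was lowered with mLIF, and 6 were lowered with mOSM and 6 with hlOSM. The most abundant was Abcc9, which cardiomyocytes also express. Tagln, 1 of these markers, is among the genes most like Dusp4, and the fibroblast marker Pdgfra is another. Fibroblast markers went in both directions. Of 8, 2 were raised and 3 lowered with mOSM, and 3 raised and 5 lowered with hlOSM. Those raised included Dcn (1.09 with mOSM and 0.98 with hlOSM) and Col3a1 (1.07 and 1.04). The part of smooth muscle cells, pericytes or fibroblasts in the changes of Dusp4 and Spry1 was not tested.

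Endothelial markers were higher with mOSM and hlOSM, with which Spred1 and Dusp6 rose. Under mLIF the median log2 fold change of the endothelial markers against PBS was 0.12, and their summed counts overlapped with PBS. The summed count of 8 endothelial markers was 1221, 1262 and 1188 in PBS, 1263, 1201 and 1266 in mLIF, 1471, 1577 and 1700 in mOSM, and 1577, 1477 and 1590 in hlOSM. Of these 8 markers, of which Kdr was the most abundant, 1 was lowered with mLIF, and 6 were raised with mOSM and 6 with hlOSM. The cardiomyocyte markers, led by Ttn, summed to 48550, 48201 and 50117 in PBS, 43641, 41849 and 42040 in mLIF, 34924, 33853 and 37907 in mOSM, and 34690, 37137 and 36141 in hlOSM, and of 8 markers 6 were lowered with mLIF, 7 with mOSM and 7 with hlOSM. These markers, which define the labelled cell type, were present in every library. Fibroblast markers, led by Col3a1, summed to 2297, 2296 and 2526 in PBS, 2189, 2251 and 2110 in mLIF, 2459, 2461 and 2885 in mOSM, and 2499, 2307 and 2540 in hlOSM, with 1 of 8 lowered with mLIF, 2 raised and 3 lowered with mOSM, and 3 raised and 5 lowered with hlOSM. Leukocyte markers, led by Lyz2, summed to 304, 318 and 308 in PBS, 302, 281 and 320 in mLIF, 342, 388 and 361 in mOSM, and 350, 316 and 388 in hlOSM, and of 5 tested, 1 was raised with mLIF and 1 with mOSM, while 1 was raised and 1 lowered with hlOSM. Cd3e is not in the table, and no other listed marker was at 0 in every library. Of all tested genes, 5.47%, 15.4% and 18.2% were raised and 4.44%, 15.8% and 19.8% lowered with mLIF, mOSM and hlOSM. The part of any of these cell types in the changes of the 10 genes was not tested.

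Among the relatives of the 10 genes, Spred3 had the widest change. This SPRED gene had normalized counts of 12, 15 and 11 in PBS, 35, 28 and 25 in mLIF, 102, 91 and 102 in mOSM, and 102, 113 and 175 in hlOSM. It rose by 1.15 with mLIF (SE 0.18, adjusted p = 0.000336), by 2.87 with mOSM (SE 0.18, adjusted p = 4.06e-11) and by 3.23 with hlOSM (SE 0.18, adjusted p = 4.36e-12). Per kilobase its level was 2.04 in PBS and 20.9 in hlOSM, beside 64.3 and 91.0 for Spred1 and 20.4 and 21.9 for Spred2. Spry3 is not in the table. Dusp7, a cytoplasmic phosphatase for ERK, was raised with mOSM by 0.43 (adjusted p = 0.00269) and with hlOSM by 0.41 (adjusted p = 0.00336). Dusp8, which acts on JNK and p38, was lowered, with a change of -0.31 with mOSM (adjusted p = 0.0106) and -0.39 with hlOSM (adjusted p = 0.00150). The call with mOSM was lost without mOSM replicate 2 (-0.26, adjusted p = 0.0563). Dusp16 was called in none of the comparisons with PBS, and Dusp2 and Dusp9 were under the filter.

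Of 16 further brakes on RAS and ERK, 3 were raised with mLIF, 6 were raised and 2 lowered with mOSM, and 6 were raised with hlOSM, with median log2 fold changes of 0.03, 0.19 and 0.20. In either direction, 9.91%, 31.2% and 37.9% of all tested genes were called with these cytokines. The 2 lowered with mOSM, outside the rule for naming genes and named after their values were seen, were Rasa1 (-0.17, adjusted p = 0.0316) and Rasa3 (-0.24, adjusted p = 0.0326), and the F test over the 4 conditions called neither (adjusted p = 0.0948 and 0.140). The call of Rasa1 was lost without PBS replicate 1 (adjusted p = 0.139) or mOSM replicate 1 (adjusted p = 0.1175), and that of Rasa3 without PBS replicate 2 (adjusted p = 0.102), PBS replicate 3 (adjusted p = 0.0943), mOSM replicate 1 (adjusted p = 0.124) or mOSM replicate 2 (adjusted p = 0.0693). Both calls were also lost with the replicate number as a block (adjusted p = 0.0557 for Rasa1 and 0.0691 for Rasa3). Those raised included Socs3, which is on this list but is a feedback inhibitor of JAK kinases. Socs3 rose by 1.005 with mLIF, 2.085 with mOSM and 2.17 with hlOSM (largest adjusted p = 1.02e-07). The ubiquitin ligase Cblb rose by 0.31, 1.15 and 1.15 (largest adjusted p = 0.00303), and Dab2ip, Rasal2, Lrig1 and Cbl rose with both mOSM and hlOSM. Dab2ip also rose with mLIF (0.31, adjusted p = 0.0167), a call lost without PBS replicate 2 (adjusted p = 0.0635), PBS replicate 3 (adjusted p = 0.0662), mLIF replicate 2 (adjusted p = 0.0614) or mLIF replicate 3 (adjusted p = 0.0965). Of 20 adaptors, RAS, RAF, MEK and ERK genes, 1 was raised with mLIF, 4 were raised and 3 lowered with mOSM, and 5 raised and 4 lowered with hlOSM (medians 0.00, 0.03 and 0.06), which is close to the shares over all tested genes. Nras rose with all 3 cytokines (0.48, 0.69 and 0.76), Gab2 and Map2k1 with mOSM and hlOSM, and the adaptor Gab1 changed by -0.55 with mOSM and -0.56 with hlOSM. Of 15 tested JNK, p38 and ERK5 pathway kinases, 1 was raised with mLIF, 2 were raised and 3 lowered with mOSM, and 3 raised and 4 lowered with hlOSM (medians 0.00, -0.02 and 0.00), again close to those shares. The p38 kinase gene Mapk11 rose by 0.85 with mOSM and by 1.43 with hlOSM, from a mean normalized count of 14 in PBS. Mapk14, a p38 kinase gene with a mean of 171 in PBS, rose by 0.31 with mLIF, 0.31 with mOSM and 0.32 with hlOSM. Its call with mLIF (adjusted p = 0.0163) was lost without mLIF replicate 3 (0.26, adjusted p = 0.0997).

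Transcripts known to respond to ERK moved in both directions. Of 24 tested, 2 were raised and 1 lowered with mLIF, 7 raised and 6 lowered with mOSM, and 7 raised and 9 lowered with hlOSM (medians 0.04, 0.07 and 0.02), beside 9.91%, 31.2% and 37.9% of all tested genes. The counts with mOSM and hlOSM are above these shares, a difference that was not tested, and the lists were chosen with earlier results of these data known. Ier3 rose with all 3 cytokines (0.52, 0.82 and 0.85), whereas Ccnd1, the cyclin D1 gene and the gene most like Spry1, changed by -1.72 with mOSM and -1.65 with hlOSM. Epha4 fell with all 3 cytokines (-0.50, -0.92 and -1.34), and its call with mLIF (adjusted p = 0.00562) was lost without mLIF replicate 3 (-0.43, adjusted p = 0.0515). Egr2 and Egr3 fell with mOSM and hlOSM, and Epha2 rose. Of 22 tested growth factors and receptor tyrosine kinases, 1 was raised and 2 lowered with mLIF, 5 raised and 9 lowered with mOSM, and 5 raised and 9 lowered with hlOSM (medians -0.01, -0.07 and -0.18), and here too the counts with mOSM and hlOSM are above the shares over all tested genes. Pdgfra, Pdgfrb and Kdr of this list are also cell type markers. Egfr rose by 1.23 with mOSM and by 1.19 with hlOSM, Fgf2 rose with all 3 cytokines (0.76, 1.08 and 1.26), and Pdgfra changed by -0.52 with mOSM and -0.59 with hlOSM.

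The promoter table of RefSeq (GRCm38.p6) holds a window from 250 bases before to 50 bases after a gene start for 8 of the 10 genes, Dusp1, Dusp5, Dusp6, Dusp10, Spry1, Spry2, Spred1 and Spred2. The RefSeq start is not always the start given in the deposited table. The letters TTCNNNGAA, bound by STAT factors, were in 0 of these 8 windows and in 8.30% of all 32851 windows. TGANTCA, the AP-1 motif, was in 0 of 8 and in 7.81% of all windows. TGACGTCA, the cyclic AMP response element (CRE), was in 1 of 8, that of Dusp1 (143 bases before the start), and in 1.79% of all windows. CCGGAA, an ETS motif, was in 1 of 8, that of Spry2, and in 14.9% of all windows. Both strands were searched, a match is a description of letters and not a binding site, and no match says only that these letters are not in the window. The stretches given here lie upstream of the RefSeq start and outside exons annotated in GENCODE M21, 5′ to 3′ on the strand of the gene. They are shown for Dusp6 and Spred1, which rose together with mOSM and hlOSM, at chr10:99262981-99263230 and chr2:117120821-117121070 (both plus strand). The stretch of Dusp1 is at chr17:26508520-26508722 (minus strand). Dusp1 was called lower with hlOSM, a call lost on leaving out some single libraries. For Dusp6 both starts are the same, for Spred1 the RefSeq start lies 303 bases before that of the table, and for Dusp1 it lies inside the gene of the table, which begins at position 26562128, so that this stretch is intronic in the longer annotation. The CRE of Dusp1 is in capitals.
Dusp6: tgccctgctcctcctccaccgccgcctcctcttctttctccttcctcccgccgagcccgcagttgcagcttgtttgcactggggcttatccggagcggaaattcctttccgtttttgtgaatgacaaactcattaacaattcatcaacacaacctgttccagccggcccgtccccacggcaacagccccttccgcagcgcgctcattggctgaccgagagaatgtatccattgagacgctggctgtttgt
Spred1: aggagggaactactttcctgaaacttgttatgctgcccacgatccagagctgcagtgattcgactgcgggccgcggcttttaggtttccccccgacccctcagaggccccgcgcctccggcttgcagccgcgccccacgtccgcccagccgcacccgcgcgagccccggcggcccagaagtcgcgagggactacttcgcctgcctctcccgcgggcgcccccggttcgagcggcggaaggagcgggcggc
Dusp1: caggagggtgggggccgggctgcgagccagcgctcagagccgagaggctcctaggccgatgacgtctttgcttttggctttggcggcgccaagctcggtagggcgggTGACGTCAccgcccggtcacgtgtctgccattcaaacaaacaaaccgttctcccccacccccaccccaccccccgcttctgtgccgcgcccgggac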

How the data were processed

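The deposited score values are read counts per gene that the authors normalized between libraries and rounded to whole numbers, and the method of normalization is not named. According to the labels, reads were checked with FastQC, aligned to mm10 with STAR 2.7.7a and counted with featureCounts 1.6.5, without reads that overlap several genes; the strand setting of the counting is not given. Tests were run in R 4.3.3 with limma 3.58.1 on log2(value + 1), with a mean-variance trend and 1 fit of the 4 conditions over 13184 genes. P-values are two-sided and adjusted by Benjamini-Hochberg over all these genes. Tests for raw counts were not used here. Of the table's genes, 22876 (99.83%) were found in GENCODE M21, which gave exon lengths and positions.

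The members and lists were chosen with earlier results of these data known. All 10 members are named. Of each other list (other MAP kinase phosphatases, other Sprouty and SPRED genes, other brakes, adaptors to ERK, JNK, p38 and ERK5 kinases, growth factors and receptor tyrosine kinases, ERK-responsive transcripts, and markers of cardiomyocytes, fibroblasts, endothelial cells, leukocytes and smooth muscle cells with pericytes), genes past the F test could be named, at most 6 a list by adjusted p, and Rasa1 and Rasa3 were added after their values were seen. Outside this rule, the text also names the most abundant marker of each list, such as Lyz2, genes overlapping a member, genes not in the table, and the DUSP genes that were not called or not tested. Genes most like a member, 3 each, were named for the 4 members with the smallest adjusted p of the F test. Alternatives were other pseudocounts, filters, scalings, fits, thresholds, a replicate block and leaving out each library.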

Additional observations from a re-analysis of the deposited data

How the results depend on the processing

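Of 1303 values of the 10 genes under the alternatives, 1279 kept their side of the threshold, 22 lost the call, 2 gained it and 0 changed direction while called. Of the 1279, 33 that were not called in either fit changed sign. Asking for a change of at least 1.5-fold lowered the number of genes called from 1 to 0 with mLIF against PBS, from 5 to 3 with mOSM and with hlOSM against PBS, and from 5 to 2 with mOSM and with hlOSM against mLIF, since smaller changes no longer count. An adjusted p under 0.01 left 0 genes with mLIF against PBS. Leaving out 1 library at a time gave 0 to 2 genes with mLIF against PBS and 0 to 1 in the interaction. With a filter at 50, Spry1 was not tested.

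With the replicate number as a block, each comparison called as many of the 10 genes as without it, 1 with mLIF, 5 with mOSM and 5 with hlOSM against PBS, and Dusp6 with mLIF had an adjusted p of 0.0480 and Dusp1 with hlOSM of 0.0423. Over all tested genes the block lowered the number called with mLIF from 1307 to 784. Among the other lists it ended the calls of Rasa1 (adjusted p = 0.0557) and Rasa3 (adjusted p = 0.0691) with mOSM, which lowered the brakes called from 8 to 6. Against PBS it also lowered the count of adaptors and RAS to ERK genes from 7 to 6 with mOSM and from 9 to 8 with hlOSM, and of JNK, p38 and ERK5 kinases from 7 to 5 with hlOSM. Growth factors and receptor tyrosine kinases went from 14 to 12 with mOSM and from 14 to 10 with hlOSM, and ERK-responsive transcripts from 13 to 12 and from 16 to 14. Cardiomyocyte markers went from 6 to 4 and fibroblast markers from 1 to 0 with mLIF, and with hlOSM fibroblast markers went from 8 to 7 and endothelial markers from 6 to 5. The other list counts against PBS were the same with the block. The replicate number holds 1.70% of the variance within conditions, where 25% would be its share without an effect, and deviations of libraries with the same number correlated at -0.41 to -0.15 in all 18 pairs. The mean shift of each replicate number was nearly the same for all 10 genes, between -0.02 and 0.03 (log2). The deposited values therefore hold almost no differences between replicate numbers of a gene's own, less than independent libraries would, and the p-values without the block, which count 8 residual degrees of freedom in place of 6, are too small. How the values came to be so is not stated in the sources.

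The named genes of the other lists, markers apart and Rasa1 and Rasa3 included, were put through the same alternatives after seeing the data: of 1887 values, 1797 kept their side, 78 lost the call, 12 gained it and 0 changed direction while called. Scalings shifted the median of all genes by at most 0.03 (log2). Spry1 has normalized counts between 10 and 40 only.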
